A study of Mus musculus with 24 samples.

Results

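The 46 genes described here encode nucleolar proteins and factors that build ribosomes. They were taken by symbol from a list of 46, and all were found among the 26636 genes of the expression tables and among the 13801 genes tested. The cells were neural progenitors of the embryonic day 12 cortex of C57BL/6 mice, which had been expanded with bFGF (basic fibroblast growth factor) and the supplement B27. At passage 3 they were moved to differentiation medium. The cultures received (+)-JQ1, the enantiomer that binds the acetyl-lysine pocket of BET bromodomain proteins, or (−)-JQ1, its mirror-image compound that lacks this activity, which serves here as the control. Doses were 0.2 and 0.5 µM and exposures 12 and 24 h, which makes 4 (+)-JQ1 groups and 4 matched (−)-JQ1 groups of 3 libraries each, 24 in all. No genotype differed between groups. The labels describe 3 independent cell preparations per group, and p-values measure the spread between these libraries.

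Ribosome assembly begins when RNA polymerase I transcribes the ribosomal DNA into a long precursor. Small nucleolar ribonucleoproteins (snoRNPs) modify this RNA, a large complex called the small subunit processome cleaves and folds it, and separate sets of assembly factors, GTPases and RNA helicases mature the small and the large subunit. Many genes of this pathway are known as targets of the transcription factor Myc, whose dimer with Max binds the DNA sequence CACGTG, and growing progenitor cells use the pathway heavily.

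The promoter sequences of the genes were read for that motif, since Myc and Max bind it. RefSeq windows of 300 bases on GRCm38.p6, 250 before and 50 from the transcription start onward, were matched by symbol for 39 of the 46 genes. Bop1, Fbl, Gnl2, Nol6, Npm1, Rrp12 and Tcof1 were not matched. CACGTG, which reads the same on both strands and is a special case of CANNTG, stood in a window of 7 of the 39 genes (17.9%) and in 7 of their 48 windows (14.6%), beside 2349 of all 32851 windows (7.15%). The looser CANNTG stood in 25 of the 39 genes (64.1%) and in 30 of their 48 windows (62.5%), beside 72.3% of all windows. A match describes letters in a window and does not show that a protein binds there. The upstream 250 bases of Nop2, an rRNA methyltransferase gene that was lower with (+)-JQ1, and of Rrn3, a polymerase I initiation factor gene whose level was not called different, are shown because they carry the same motif. It is in capitals and stands 60 bases before the start in Nop2, and 215 and 48 bases before the start in Rrn3.
Nop2, chr6:125131633-125131882, plus strand: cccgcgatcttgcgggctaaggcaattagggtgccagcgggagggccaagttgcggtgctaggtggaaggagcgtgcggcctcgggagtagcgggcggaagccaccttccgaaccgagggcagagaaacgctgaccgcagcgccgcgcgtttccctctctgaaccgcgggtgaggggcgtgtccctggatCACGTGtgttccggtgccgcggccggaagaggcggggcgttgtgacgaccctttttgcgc
Rrn3, chr16:13780449-13780698, plus strand: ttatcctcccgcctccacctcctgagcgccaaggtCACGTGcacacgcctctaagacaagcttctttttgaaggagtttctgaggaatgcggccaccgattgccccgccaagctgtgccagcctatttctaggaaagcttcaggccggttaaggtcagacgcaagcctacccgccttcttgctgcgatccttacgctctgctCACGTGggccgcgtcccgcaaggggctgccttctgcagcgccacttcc
In the other 5 genes the motif stood after the annotated start, with its first base 29, 38, 3, 41 and 18 bases from it in Ltv1, Utp20, Pes1, Mybbp1a and Wdr43. The 30 bases that hold it are shown, again with the motif in capitals, 5′ to 3′ on the gene's strand.
Ltv1, chr10:13193092-13193121, minus strand: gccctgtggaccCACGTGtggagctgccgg
Utp20, chr10:88826765-88826794, minus strand: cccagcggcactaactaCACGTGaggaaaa
Pes1, chr11:3963965-3963994, plus strand: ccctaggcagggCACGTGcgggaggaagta
Mybbp1a, chr11:72441347-72441376, plus strand: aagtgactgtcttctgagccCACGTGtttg
Wdr43, chr17:71616220-71616249, plus strand: cgcccgggcgaaCACGTGgctgccgcggag
Of these 7 genes, 6, all but Rrn3, were called lower in all 4 comparisons that follow, as were 13 of the 32 matched genes without the motif (40.6%), 22 of all 46 genes (47.8%) and 14.6% of all genes tested. The difference between genes with and without the motif was not tested.

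More of the 46 genes than not were called lower in (+)-JQ1 cells at every dose and time, and none was called higher. Levels are given as FPKM, read counts scaled by transcript length and library size. Fold changes are log2 of FPKM + 1, (+)-JQ1 over (−)-JQ1, which understates the change of genes with low values. A value after the ± of a fold change is its limma standard error, with the spread estimated over all 8 groups of 3 libraries. A call means an adjusted p under 0.05 in limma, by the Benjamini-Hochberg method over all 13801 genes. At 0.2 µM and 12 h, 26 of the 46 genes were lower, where 19.6% of all genes tested were. At 0.5 µM and 12 h, 31 were lower, with 26.1% of all genes. After 24 h, 26 were lower at 0.2 µM, with 21.8% of all genes, and 26 at 0.5 µM, with 24.5% of all genes. In limma 0 members were called higher in each comparison, where 8.23%, 12.2%, 11.0% and 13.7% of all genes were, taken in the same order. At an unadjusted p under 0.05, 30, 32, 34 and 28 members differed in that order. The share of all genes at that threshold was not counted, here or for the unadjusted counts below, so those counts have no background. When each comparison was filtered and fitted on its own 6 libraries, 28, 33, 11 and 24 members were lower in that order, beside 23.1%, 31.5%, 11.8% and 22.98% of all genes. The 15 calls lost in this way at 0.2 µM and 24 h were those of Polr1a, Polr1b, Tcof1, Nop56, Dkc1, Wdr43, Heatr1, Bysl, Rrp12, Nop2, Wdr12, Ebna1bp2, Noc2l, Mybbp1a and Npm1. With median-of-ratios scaling, which moves the median of all genes up by 0.08 to 0.10, 24, 30, 24 and 23 members were lower and 0 higher. The calls lost were those of Rrp9 and Wdr43, of Ddx21, of Tcof1 and Nop56, and of Ddx21, Wdr43 and Noc4l in that order. All genes called lower then made up 16.5%, 21.8%, 17.7% and 21.3%, and all called higher 13.1%, 19.1%, 18.2% and 19.8%.

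The median log2 fold change of the 46 genes was −0.43 at 0.2 µM and −0.55 at 0.5 µM after 12 h, and −0.41 at 0.2 µM and −0.45 at 0.5 µM after 24 h. Over all genes tested the medians were −0.07, −0.10, −0.07 and −0.05 in that order. Among the genes called lower, the mean FPKM with (+)-JQ1 was a median of 63.5% of that with (−)-JQ1 at 0.2 µM and 59.9% at 0.5 µM after 12 h. After 24 h it was 63.4% at 0.2 µM and 62.1% at 0.5 µM. The lowest share was 25.3% and the highest 79.0%. Over all 46 genes, called or not, the median was 72.4%, 66.1%, 72.3% and 71.0% in the same order. All 3 (+)-JQ1 libraries lay below all 3 (−)-JQ1 libraries in 32 and 36 genes at 0.2 and 0.5 µM after 12 h, beside 30.2% and 37.5% of all genes. After 24 h this held for 25 and 29 genes, beside 22.3% and 29.4% of all genes. In 0 members did all (+)-JQ1 libraries lie above all (−)-JQ1 libraries, a pattern seen in 16.8%, 20.7%, 11.7% and 18.7% of all genes. The total over the 46 genes at 0.5 µM and 24 h was 1185, 1170.2 and 941 FPKM in the 3 (+)-JQ1 libraries, against 1513, 1523 and 1239 FPKM in the 3 (−)-JQ1 libraries. After 12 h at that dose it was 886, 973 and 1037 FPKM with (+)-JQ1, against 1174, 1212 and 1337 FPKM with (−)-JQ1. These are bulk cultures, so fewer cells that express a gene and less RNA per cell cannot be told apart.

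Of the 46 genes, 22 (47.8%) were lower in all 4 comparisons, as were 14.6% of all genes. They were Polr1a, Polr1b and Tcof1 of RNA polymerase I transcription, the snoRNP genes Fbl, Rrp9, Dkc1, Nhp2 and Gar1, and the small subunit genes Utp20, Wdr43, Heatr1, Bysl, Ltv1 and Rrp12. The others were the large subunit genes Nop2, Nop16, Pes1, Ebna1bp2 and Gnl3, the helicase gene Ddx18, and Nolc1 and Mybbp1a. In 9 of the 22, Fbl, Nhp2, Gar1, Utp20, Ltv1, Nop16, Pes1, Gnl3 and Nolc1, no call was lost when any 1 library was left out or under any other alternative run. How many of the 2019 genes called lower in all 4 comparisons kept every call was not counted. Nob1, Noc2l, Noc4l and Wdr12 were lower in 3 comparisons, Ddx21 and Surf6 in 2, and Polr1e, Rrp1b, Utp15, Nop56 and Npm1 in 1. The remaining 13 genes were called in none, as were 49.1% of all genes: Polr1c, Rrn3, Ubtf, Nop58, Nop10, Nop14, Nol6, Bop1, Gnl2, Noc3l, Ddx10, Ncl and Lyar. The fold change was below 0 in all 4 comparisons, called or not, in 39 of the 46 genes, and in 43.1% of all genes tested.

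**Figure D1:**
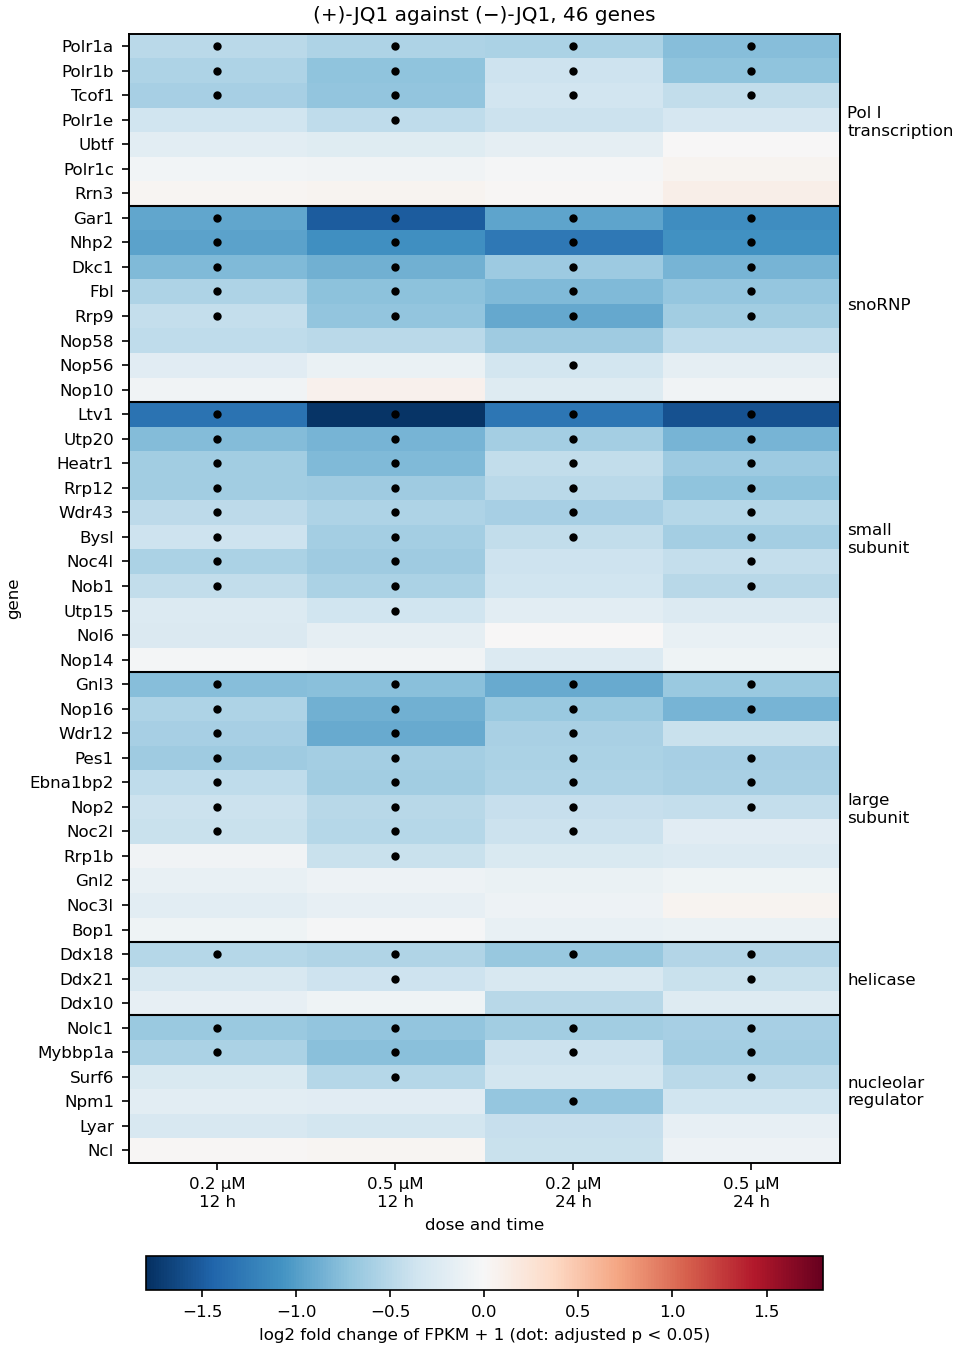
Log2 fold change of FPKM + 1, (+)-JQ1 over (−)-JQ1, for the 46 genes (rows, grouped by role) at each dose and time (columns), with a dot where the limma adjusted p was under 0.05. Blue cells, lower with (+)-JQ1, fill most of the map, with the deepest colour in Ltv1, Gar1 and Nhp2, while Rrn3, Polr1c and Bop1 are near white throughout.

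The catalytic subunit genes of RNA polymerase I were lower with (+)-JQ1 at every dose and time. Of the 7 polymerase I genes, 3 were lower at 0.2 µM and 4 at 0.5 µM after 12 h, and 3 at each dose after 24 h. The shares of all genes called lower were 19.6% and 26.1% at those doses after 12 h, and 21.8% and 24.5% after 24 h. Polr1a, the largest catalytic subunit, had 4.64, 4.17 and 4.15 FPKM in (+)-JQ1 cells, against 7.86, 8.24 and 7.92 FPKM in (−)-JQ1 cells at 0.5 µM and 24 h. The groups did not overlap, and the log2 fold change was −0.76 ± 0.11 (limma adjusted p = 7.78e-06). Its fold change over the 4 comparisons was −0.49 at 0.2 µM and −0.56 at 0.5 µM after 12 h, and −0.57 at 0.2 µM and −0.76 at 0.5 µM after 24 h. Polr1b, the other large catalytic subunit, had 2.96, 3.69 and 3.31 FPKM in (+)-JQ1 cells, against 6.89, 5.31 and 6.22 FPKM in (−)-JQ1 cells at 0.5 µM and 24 h. Every (+)-JQ1 value lay below every (−)-JQ1 value, with a log2 fold change of −0.72 ± 0.12 and a limma adjusted p of 3.68e-05. Tcof1 encodes treacle, a nucleolar protein needed for ribosomal DNA transcription. It had 5.21, 5.23 and 5.25 FPKM in (+)-JQ1 cells, against 9.003, 8.97 and 9.69 FPKM in (−)-JQ1 cells at 0.5 µM and 12 h, where its fold change was −0.71 ± 0.11 (limma adjusted p = 3.28e-05). At 0.2 µM and 24 h its call was lost without the 2nd (+)-JQ1 or the 3rd (−)-JQ1 library (adjusted p 0.119 to 0.176), and that of Polr1b without the 1st (+)-JQ1 or the 1st (−)-JQ1 library (adjusted p 0.0741 to 0.104). Polr1e, a subunit that works in initiation and elongation, passed the test at 0.5 µM and 12 h alone (−0.46, adjusted p = 0.0171), and its fold changes were −0.36, −0.38 and −0.31 in the other comparisons. The call was lost without the 1st (+)-JQ1 or the 2nd or 3rd (−)-JQ1 library (adjusted p 0.0592 to 0.0743). Polr1e was called at 0.2 µM and 12 h without the 1st (−)-JQ1 library (adjusted p = 0.0326) and at 0.2 µM and 24 h without the 2nd (+)-JQ1 or the 2nd (−)-JQ1 library (adjusted p 0.0245 to 0.0267).

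The genes that bring the polymerase to the ribosomal DNA were not called in any comparison with all libraries in the fit. Rrn3 encodes TIF-IA, the factor that joins the polymerase to the promoter complex. Its levels at 0.5 µM and 24 h were 38.2, 34.5 and 33.1 FPKM in (+)-JQ1 cells, against 35.9, 31.2 and 31.1 FPKM in (−)-JQ1 cells, and the groups overlapped. The fold change was 0.11 ± 0.11 with a 95% interval of −0.12 to 0.34, and in the other comparisons 0.04, 0.04 and 0.03. Ubtf, the upstream binding factor that keeps ribosomal DNA open, had 30.6, 33.9 and 30.03 FPKM in (+)-JQ1 cells, against 31.9, 34.1 and 28.5 FPKM in (−)-JQ1 cells at 0.5 µM and 24 h, with an interval of −0.19 to 0.20 around a fold change of 0.00. After 12 h its libraries did not overlap at either dose, with fold changes of −0.20 (limma adjusted p = 0.134) and −0.22 (limma adjusted p = 0.066). Ubtf was called lower at 0.5 µM and 12 h without the 3rd (+)-JQ1 library (adjusted p = 0.0407) or with those 6 libraries fitted alone (adjusted p = 0.045), and at 0.2 µM and 24 h without the 2nd (−)-JQ1 library (adjusted p = 0.0475). Polr1c, a subunit shared by polymerases I and III, had 24.8, 25.5 and 19.4 FPKM in (+)-JQ1 cells, against 22.9, 26.5 and 18.2 FPKM in (−)-JQ1 cells at 0.5 µM and 24 h. These values overlapped, and its fold changes over the 4 comparisons were −0.06, −0.06, −0.02 and 0.05.

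SnoRNP genes included some of the deepest falls. Box C/D particles guide ribose methylation of rRNA, and box H/ACA particles guide pseudouridylation. Of the 8 snoRNP genes, 5 were lower at each dose after 12 h, and after 24 h 6 were at 0.2 µM and 5 at 0.5 µM. Among all genes, 19.6% and 26.1% were lower at 0.2 and 0.5 µM after 12 h, and 21.8% and 24.5% after 24 h. In the H/ACA particle the gene of the enzyme itself, dyskerin (Dkc1), had 13.1, 10.8 and 9.20 FPKM in (+)-JQ1 cells, against 21.8, 22.99 and 16.5 FPKM in (−)-JQ1 cells at 0.5 µM and 24 h. The groups did not overlap, and the fold change was −0.83 ± 0.18 (limma adjusted p = 0.00102). Nhp2, an RNA-binding core protein, had 19.5, 16.8 and 14.1 FPKM in (+)-JQ1 cells, against 40.1, 40.5 and 29.8 FPKM in (−)-JQ1 cells. Its mean with (+)-JQ1 was 45.6% of that with (−)-JQ1, with a fold change of −1.09 ± 0.16 and a limma adjusted p of 1.3e-05. Gar1, a core protein that contacts dyskerin, had 4.99, 4.81 and 4.03 FPKM in (+)-JQ1 cells, against 10.8, 11.5 and 10.98 FPKM in (−)-JQ1 cells. It stood lower in every (+)-JQ1 library of the study than in any (−)-JQ1 library, and its fold changes were −0.94 at 0.2 µM and −1.50 at 0.5 µM after 12 h, and −0.95 at 0.2 µM and −1.11 at 0.5 µM after 24 h. At 0.5 µM and 12 h its mean with (+)-JQ1 was 30.02% of that with (−)-JQ1 (limma adjusted p = 3.34e-08). The smallest protein of the same particle, Nop10, was called in none of the comparisons. It had 39.5, 34.9 and 45.5 FPKM in (+)-JQ1 cells, against 41.95, 36.7 and 47.002 FPKM in (−)-JQ1 cells at 0.5 µM and 24 h, overlapping groups, and fold changes of −0.06, 0.08, −0.23 and −0.07 over the 4 comparisons, with a 95% interval of −0.48 to 0.35 for the last. The call of Dkc1 at 0.2 µM and 24 h was lost without the 2nd (+)-JQ1 library (adjusted p = 0.0599), and Nop10 was called lower there without the 2nd (−)-JQ1 library (adjusted p = 0.0379).

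In the box C/D particle the methyltransferase gene was called lower at every dose and time, and the scaffold genes Nop56 and Nop58 in 1 comparison and in none. Fbl, fibrillarin, had 45.3, 47.98 and 40.05 FPKM in (+)-JQ1 cells, against 76.6, 73.6 and 68.3 FPKM in (−)-JQ1 cells at 0.5 µM and 24 h. The groups did not overlap at any dose or time, and the fold changes were −0.56 at 0.2 µM and −0.74 at 0.5 µM after 12 h, and −0.79 at 0.2 µM and −0.70 at 0.5 µM after 24 h (limma adjusted p = 0.000327 for the last). Nop56 had 39.02, 42.7 and 35.6 FPKM in (+)-JQ1 cells, against 47.7, 42.6 and 41.2 FPKM in (−)-JQ1 cells at 0.5 µM and 24 h, with overlapping groups and a fold change of −0.16 (95% interval −0.40 to 0.08). It was called at 0.2 µM and 24 h alone, at 39.5, 36.3 and 36.8 FPKM in (+)-JQ1 cells, against 43.3, 47.3 and 51.9 FPKM in (−)-JQ1 cells (fold change −0.33 ± 0.12, limma adjusted p = 0.0322). That call was lost when the 2nd or 3rd library of either enantiomer was left out, with adjusted p from 0.0536 to 0.131. Nop58, the partner of Nop56, had 47.7, 46.6 and 27.02 FPKM in (+)-JQ1 cells, against 64.8, 65.6 and 36.99 FPKM in (−)-JQ1 cells at 0.5 µM and 24 h, where the 3rd library of each enantiomer was the lowest. Its fold changes of −0.46, −0.48, −0.64 and −0.45 were as large as those of many called genes, but it was called in none of the comparisons (limma adjusted p = 0.264, 0.196, 0.0898 and 0.23). Nor was it called with a term for the preparation number in the fit. A fit paired within each dose and time was not run. After 12 h all 3 (+)-JQ1 libraries lay below all 3 (−)-JQ1 libraries at both doses, and with the spread taken from those groups alone it was called at 0.2 µM (adjusted p = 0.0158) and 0.5 µM (adjusted p = 0.00303). At 0.2 µM and 24 h it was called without the 1st (+)-JQ1 or the 1st (−)-JQ1 library (adjusted p 0.0142 to 0.0337). Rrp9, which recognises the snoRNA that guides early precursor cleavage, was lower in all 4 comparisons, most at 0.2 µM and 24 h with 8.22, 10.6 and 7.85 FPKM in (+)-JQ1 cells, against 16.1, 14.9 and 22.7 FPKM in (−)-JQ1 cells (fold change −0.92 ± 0.16, limma adjusted p = 0.00011). Its call at 0.2 µM and 12 h was lost without the 1st or 2nd (+)-JQ1 or the 1st, 2nd or 3rd (−)-JQ1 library (adjusted p 0.053 to 0.223).

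Exons of Rrp9, Dkc1, Nhp2 and Nop56 overlap those of genes on the opposite strand in the GENCODE annotation. Exons of 10 other members do so too, those of Bop1, Bysl, Gnl2, Gnl3, Heatr1, Mybbp1a, Noc2l, Pes1, Rrp1b and Wdr12. The strand of the library kit is not stated, so reads of such pairs cannot be told apart. Of the 14 overlapping neighbours 11 were tested, and 6 were called lower at 0.5 µM and 24 h. Their fold changes were −1.35 for Parp3 beside Rrp9, −1.09 for Dnali1 beside Gnl2, −0.52 for Spns2 beside Mybbp1a, −0.50 for Mpp1 beside Dkc1, −0.34 for Idh3b beside Nop56 and −0.30 for Lgals8 beside Heatr1 (limma adjusted p from 4.57e-05 to 0.035). The other 5, beside Bysl, Gnl3, Nhp2, Noc2l and Wdr12, were not called, and the neighbours of Bop1, Pes1 and Rrp1b were not tested.

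Ltv1 of the small subunit set had the lowest fold change of the 46 genes in each comparison. Of the 11 genes of that set, 8 were lower at 0.2 µM and 9 at 0.5 µM after 12 h, and 6 and 8 at those doses after 24 h. Over all genes the shares called lower were 19.6%, 26.1%, 21.8% and 24.5% in that order. Ltv1, a factor that accompanies the small subunit precursor out of the nucleus, had 5.71, 5.56 and 4.89 FPKM in (+)-JQ1 cells, against 18.5, 18.96 and 16.5 FPKM in (−)-JQ1 cells at 0.5 µM and 24 h. The 12 h libraries at that dose had 3.13, 4.05 and 4.70 FPKM in (+)-JQ1 cells, against 15.7, 14.6 and 16.7 FPKM in (−)-JQ1 cells. The mean with (+)-JQ1 was thus 29.97% of that with (−)-JQ1 after 24 h and 25.3% after 12 h. The fold changes were −1.33 at 0.2 µM and −1.76 at 0.5 µM after 12 h, and −1.30 at 0.2 µM and −1.57 at 0.5 µM after 24 h (limma adjusted p from 3.61e-08 to 4.12e-06), and no (+)-JQ1 library of the study reached the lowest (−)-JQ1 library.

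Heatr1, a member of the subcomplex that binds the nascent precursor, had 3.69, 3.42 and 3.31 FPKM in (+)-JQ1 cells, against 5.93, 5.43 and 6.74 FPKM in (−)-JQ1 cells at 0.5 µM and 24 h, with no overlap and a fold change of −0.65 ± 0.12 (limma adjusted p = 0.000132). Utp20, a very large scaffold protein, had the lowest level of the set. It had 1.54, 1.20 and 1.31 FPKM in (+)-JQ1 cells, against 3.68, 2.92 and 2.98 FPKM in (−)-JQ1 cells at 0.5 µM and 24 h, with fold changes of −0.78, −0.83, −0.61 and −0.83 over the 4 comparisons. Wdr43, of the same subcomplex as Heatr1, had fold changes of −0.48, −0.56, −0.60 and −0.52, all 4 called. Its limma adjusted p was 0.045 at 0.2 µM and 12 h and the call was lost there without the 1st or 2nd (+)-JQ1 or the 1st, 2nd or 3rd (−)-JQ1 library (adjusted p 0.0577 to 0.164). It was also lost at 0.5 µM and 12 h without the 1st (+)-JQ1 or the 3rd (−)-JQ1 library (adjusted p 0.0581 to 0.0715), at 0.2 µM and 24 h without the 2nd (+)-JQ1 or the 2nd (−)-JQ1 library (adjusted p 0.0579 to 0.0654), and at 0.5 µM and 24 h without the 3rd (+)-JQ1 or the 1st or 2nd (−)-JQ1 library (adjusted p 0.0526 to 0.131). Utp15, also of that subcomplex, was called at 0.5 µM and 12 h alone (−0.35, adjusted p = 0.00502), and its adjusted p at 0.5 µM and 24 h was 0.0516. It was called there with a replicate block, a term for the preparation number (adjusted p = 0.0265), with no filter on low values (adjusted p = 0.0445) or without the 2 libraries in which the RNA Mir5105 takes a large share (adjusted p = 0.0414), and with the block also at 0.2 µM and 12 h (adjusted p = 0.0339). Nop14, Nol6 and Noc4l complete the early set. Nop14 and Nol6 were not called, with fold changes between −0.24 and −0.04 for Nop14 and between −0.26 and 0.01 for Nol6. Nol6 was called at 0.2 µM and 12 h with those 6 libraries fitted alone (adjusted p = 0.0406). Noc4l was lower in the other 3 comparisons but not at 0.2 µM and 24 h (−0.37, adjusted p = 0.065), where it was called without the 2nd (−)-JQ1 library (adjusted p = 0.00805). At 0.5 µM and 24 h its call was lost without the 1st or 2nd (+)-JQ1 or the 1st or 2nd (−)-JQ1 library (adjusted p 0.0505 to 0.149).

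Late small subunit factors were also lower. Rrp12, a repeat protein of late precursors, had 1.92, 2.03 and 1.73 FPKM in (+)-JQ1 cells, against 3.48, 3.996 and 3.83 FPKM in (−)-JQ1 cells at 0.5 µM and 24 h. The groups did not overlap, the (+)-JQ1 mean was 50.3% of the (−)-JQ1 mean, and the fold change was −0.72 ± 0.12 (limma adjusted p = 4.5e-05). Bysl, bystin, was lower at every dose and time, with fold changes of −0.37, −0.62, −0.45 and −0.62. It had 6.73, 5.70 and 6.74 FPKM in (+)-JQ1 cells, against 9.81, 10.03 and 11.1 FPKM in (−)-JQ1 cells at 0.5 µM and 24 h. Nob1, the endonuclease that makes the final cut of the small subunit rRNA, was lower in 3 comparisons, with fold changes of −0.44, −0.57 and −0.50. At 0.2 µM and 24 h its fold change was −0.36 (adjusted p = 0.0852). Its call was lost at 0.2 µM and 12 h without the 1st or 2nd (+)-JQ1 or the 1st, 2nd or 3rd (−)-JQ1 library (adjusted p 0.0502 to 0.139), at 0.5 µM and 12 h without the 1st (+)-JQ1 library (adjusted p = 0.0531), and at 0.5 µM and 24 h without the 3rd (+)-JQ1 library (adjusted p = 0.0762). It was called at 0.2 µM and 24 h without the 2nd (+)-JQ1 or the 2nd (−)-JQ1 library (adjusted p 0.0139 to 0.0351). The call of Bysl at 0.2 µM and 12 h was lost without the 3rd (−)-JQ1 library (adjusted p = 0.0792).

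**Figure D2:**
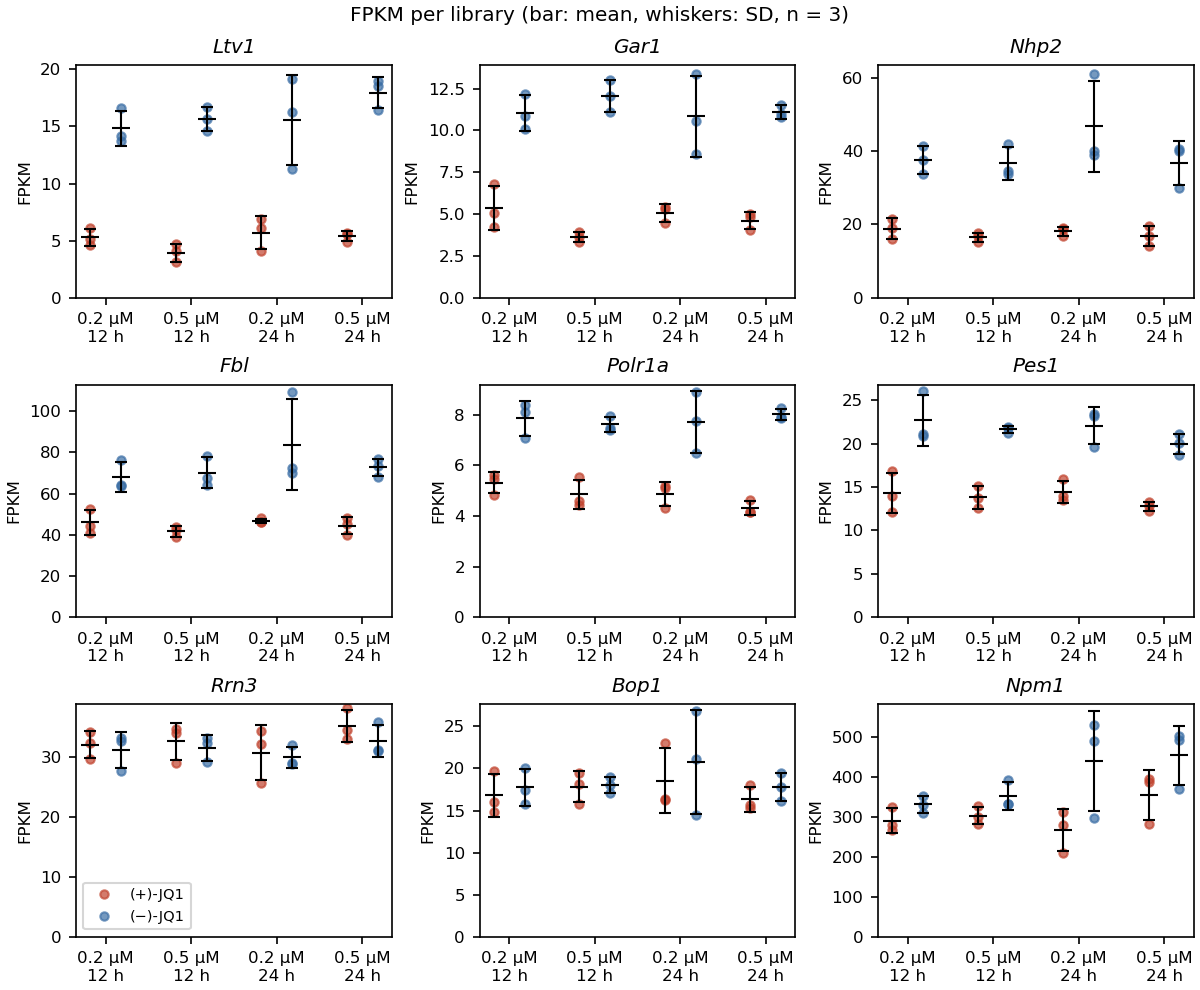
FPKM in each library for 9 genes, with (+)-JQ1 (red) left of (−)-JQ1 (blue) at each dose and time, horizontal bars for the mean and whiskers for the SD of 3 libraries. Ltv1, Gar1, Nhp2, Fbl, Polr1a and Pes1 separate the compounds with no overlap in any panel position, whereas Rrn3 and Bop1 overlap and Npm1 spreads widely at 0.2 µM and 24 h.

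Large subunit genes included members that were lower throughout and members called nowhere, also within 1 complex. Of 11 genes, 7 were lower at 0.2 µM and 8 at 0.5 µM after 12 h, and 7 and 5 at those doses after 24 h. The shares of all genes were 19.6%, 26.1%, 21.8% and 24.5% in that order. Pes1, Bop1 and Wdr12 encode the 3 proteins of the PeBoW complex, which acts on the large subunit precursor. Pes1 had 13.3, 12.2 and 12.8 FPKM in (+)-JQ1 cells, against 21.1, 20.03 and 18.7 FPKM in (−)-JQ1 cells at 0.5 µM and 24 h, with no overlap and a fold change of −0.60 ± 0.11 (limma adjusted p = 0.000172). Bop1 had 15.3, 15.7 and 18.05 FPKM in (+)-JQ1 cells, against 17.8, 16.1 and 19.4 FPKM in (−)-JQ1 cells, and its groups overlapped. Its fold change was −0.11 ± 0.17 with a 95% interval of −0.46 to 0.24, and in the other comparisons −0.08, −0.02 and −0.13. Wdr12 was lower in 3 comparisons, most at 0.5 µM and 12 h with 2.50, 2.59 and 2.90 FPKM in (+)-JQ1 cells, against 6.49, 4.71 and 6.57 FPKM in (−)-JQ1 cells (fold change −0.91 ± 0.17, limma adjusted p = 0.000207). At 0.5 µM and 24 h its fold change was −0.39 (adjusted p = 0.0736), and it was called there without the 1st (+)-JQ1 library (adjusted p = 0.0425). Its call was lost at 0.2 µM and 12 h without the 1st or 2nd (+)-JQ1 or the 3rd (−)-JQ1 library (adjusted p 0.0578 to 0.0745), and at 0.2 µM and 24 h without the 3rd (+)-JQ1 library (adjusted p = 0.0595). The difference between Pes1 and Bop1 was not itself tested.

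Gnl3 and Gnl2 are related nucleolar GTPases. Gnl3, nucleostemin, is known for its high level in stem and progenitor cells. It had 11.7, 13.2 and 9.67 FPKM in (+)-JQ1 cells, against 18.05, 21.7 and 16.5 FPKM in (−)-JQ1 cells at 0.5 µM and 24 h and fold changes of −0.77 at 0.2 µM and −0.75 at 0.5 µM after 12 h, and −0.90 at 0.2 µM and −0.66 at 0.5 µM after 24 h. The limma adjusted p ran from 6.18e-05 to 0.00103, and the groups did not overlap at any dose or time. Gnl2 was called in none of the comparisons, with fold changes of −0.14, −0.10, −0.11 and −0.07 and a 95% interval of −0.36 to 0.22 at 0.5 µM and 24 h. Nop16, a large subunit assembly factor known as a Myc-responsive gene, had 5.50, 5.66 and 4.63 FPKM in (+)-JQ1 cells, against 11.8, 10.3 and 8.53 FPKM in (−)-JQ1 cells at 0.5 µM and 24 h. Its (+)-JQ1 mean was 51.5% of the (−)-JQ1 mean, with a fold change of −0.83 ± 0.13 (limma adjusted p = 2.9e-05).

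Nop2, an rRNA methyltransferase long used as a proliferation antigen, had fold changes of −0.38, −0.51, −0.42 and −0.43 in the 4 comparisons, all called. Its call was lost at 0.2 µM and 12 h without the 1st (+)-JQ1 or the 2nd or 3rd (−)-JQ1 library (adjusted p 0.0647 to 0.13). After 24 h it was lost at 0.2 µM without the 3rd (+)-JQ1 library (adjusted p = 0.0869), and at 0.5 µM without the 3rd (+)-JQ1 or the 2nd (−)-JQ1 library (adjusted p 0.0529 to 0.0586). Ebna1bp2, a scaffold of early large subunit precursors, was lower throughout at −0.46, −0.62, −0.55 and −0.59. It had 13.5, 12.9 and 13.7 FPKM in (+)-JQ1 cells, against 20.9, 20.7 and 20.3 FPKM in (−)-JQ1 cells at 0.5 µM and 24 h, a narrow spread within each group. Noc2l was lower in the first 3 comparisons (−0.40, −0.52 and −0.39), and its relative Noc3l in none. The call of Noc2l was lost at 0.2 µM and 12 h without the 1st or 2nd (+)-JQ1 or the 2nd or 3rd (−)-JQ1 library (adjusted p 0.0513 to 0.0918), and at 0.2 µM and 24 h without the 3rd (+)-JQ1 or the 1st (−)-JQ1 library (adjusted p 0.0993 to 0.116). Noc3l had 11.8, 9.85 and 8.03 FPKM in (+)-JQ1 cells, against 9.73, 10.5 and 8.04 FPKM in (−)-JQ1 cells at 0.5 µM and 24 h, overlapping groups, and a fold change of 0.06 (95% interval −0.22 to 0.33). Rrp1b passed the test at 0.5 µM and 12 h alone (−0.40, adjusted p = 0.0126), a call that was lost without the 1st (+)-JQ1 library (adjusted p = 0.0656). It was called at 0.2 µM and 24 h without the 3rd (−)-JQ1 library (adjusted p = 0.00731).

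Of the 3 DEAD-box RNA helicase genes on the list, Ddx18 was lower in all 4 comparisons, with fold changes of −0.52, −0.54, −0.68 and −0.52. Its levels were 13.8, 14.4 and 10.1 FPKM in (+)-JQ1 cells, against 18.7, 20.6 and 16.7 FPKM in (−)-JQ1 cells at 0.5 µM and 24 h. Ddx21, which couples polymerase I transcription to rRNA processing, was called at 0.5 µM at both times, at −0.38 (limma adjusted p = 0.025) and −0.40 (limma adjusted p = 0.0192). The call after 12 h was lost without the 1st or 2nd (+)-JQ1 or the 3rd (−)-JQ1 library (adjusted p 0.0834 to 0.105), and that after 24 h without the 3rd (+)-JQ1 or the 1st or 2nd (−)-JQ1 library (adjusted p 0.0544 to 0.134). The call of Ddx18 was lost at 0.2 µM and 12 h without the 1st (+)-JQ1 or the 3rd (−)-JQ1 library (adjusted p 0.0593 to 0.063), and at 0.5 µM and 24 h without the 3rd (+)-JQ1 library (adjusted p = 0.0615). At 0.2 µM the fold changes of Ddx21 were −0.29 and −0.29, and it was called after 12 h without the 3rd (+)-JQ1 library (adjusted p = 0.0423). Ddx10 was called in none, and its fold changes were −0.15, −0.07, −0.49 and −0.23. At 0.2 µM and 24 h it had 8.62, 4.88 and 7.06 FPKM in (+)-JQ1 cells, against 6.75, 13.03 and 10.7 FPKM in (−)-JQ1 cells, and it was called there without the 1st (+)-JQ1 or the 1st (−)-JQ1 library (adjusted p 0.00524 to 0.0264).

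Among the general nucleolar proteins, the gene of a snoRNP chaperone was lower at every dose and time, and those of the most abundant proteins were called in at most 1 comparison. Nolc1 encodes Nopp140, which binds snoRNPs on their way to the nucleolus. It had 21.8, 20.6 and 18.9 FPKM in (+)-JQ1 cells, against 31.8, 32.9 and 30.03 FPKM in (−)-JQ1 cells at 0.5 µM and 24 h, with no overlap. The fold changes were −0.66 at 0.2 µM and −0.71 at 0.5 µM after 12 h, and −0.63 at 0.2 µM and −0.60 at 0.5 µM after 24 h, with limma adjusted p from 7.89e-06 to 5.49e-05. Mybbp1a, a nucleolar protein that shuttles on nucleolar stress, was lower in all 4 comparisons at −0.56, −0.75, −0.39 and −0.61. Its call at 0.2 µM and 24 h was lost without the 3rd (+)-JQ1 or the 1st (−)-JQ1 library (adjusted p 0.0556 to 0.0685). Surf6 was lower at 0.5 µM after 12 h (−0.52) and 24 h (−0.48). The call after 24 h was lost without the 2nd (+)-JQ1 or the 1st (−)-JQ1 library (adjusted p 0.0512 to 0.0543), and at 0.2 µM and 24 h it was called without the 2nd (+)-JQ1 or the 2nd (−)-JQ1 library (adjusted p 0.0359 to 0.0432). Lyar was called in none, with fold changes of −0.29, −0.34, −0.41 and −0.15.

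Nucleophosmin and nucleolin, the major structural proteins of the nucleolus, had the highest levels of the set. Npm1 had 396, 386 and 283 FPKM in (+)-JQ1 cells, against 492, 503 and 369 FPKM in (−)-JQ1 cells at 0.5 µM and 24 h. Its fold change there was −0.36 ± 0.19 (limma adjusted p = 0.151, and 0.0408 without the 2 libraries high in Mir5105, which belong to other groups), and after 12 h it was −0.19 at 0.2 µM and −0.21 at 0.5 µM. At 0.5 µM and 24 h the 3rd library of each enantiomer was the lowest. Npm1 was not called there with the replicate block, and a fit paired within that dose and time was not run. With all libraries in the fit it was called at 0.2 µM and 24 h alone, with 312, 210.4 and 280.0 FPKM in (+)-JQ1 cells, against 298, 491 and 530.4 FPKM in (−)-JQ1 cells (fold change −0.69 ± 0.19, limma adjusted p = 0.00806). Those groups overlap, since the 1st (−)-JQ1 library lay below the 1st (+)-JQ1 library. The call was lost without the 2nd (+)-JQ1 library (adjusted p = 0.0501) or the 3rd (−)-JQ1 library (adjusted p = 0.0556). Processed copies of Npm1 are known in the mouse genome, so its value is uncertain where reads could be shared among them. Ncl had 115, 117 and 77.7 FPKM in (+)-JQ1 cells, against 118, 129 and 85.1 FPKM in (−)-JQ1 cells at 0.5 µM and 24 h, with overlapping groups and a fold change of −0.10 (95% interval −0.54 to 0.34). After 12 h its fold changes were 0.02 and 0.03. At 0.2 µM and 24 h it had 87.7, 55.6 and 80.4 FPKM in (+)-JQ1 cells, against 64.7, 126 and 111 FPKM in (−)-JQ1 cells (fold change −0.40, adjusted p = 0.157), and it was called lower without the 1st (−)-JQ1 library (adjusted p = 0.00905).

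In the 12 (−)-JQ1 libraries, Npm1 averaged 394 ± 85.2 FPKM, Ncl 91.7 ± 22.8 FPKM and Fbl 73.7 ± 12.3 FPKM, each with the SD over 12 libraries of 4 groups. Nop10, Nop58 and Nop56 came next at 46.7 ± 10.1, 44.8 ± 12.5 and 44.2 ± 3.90 FPKM, and did not differ beyond their spread. Utp20 was lowest at 3.20 ± 0.408 FPKM, next to Rrp12 at 4.01 ± 0.365 FPKM and Rrp1b at 4.09 ± 0.520 FPKM, and Rrp12 and Rrp1b did not differ beyond that spread. Among the 15 genes with the highest (−)-JQ1 level, 6, 6, 7 and 6 were called lower in the 4 comparisons, and among the other 31 genes 20, 25, 19 and 20 were. The shares of all genes called lower were 19.6%, 26.1%, 21.8% and 24.5%. The rank correlation of level with log2 fold change across the 46 genes was 0.22, 0.31, −0.04 and 0.24, and across all genes tested it was 0.06, 0.05, −0.01 and 0.07. These are descriptions across genes that share the same 6 libraries, and they rest on the same (−)-JQ1 values on both axes.

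**Figure D3:**
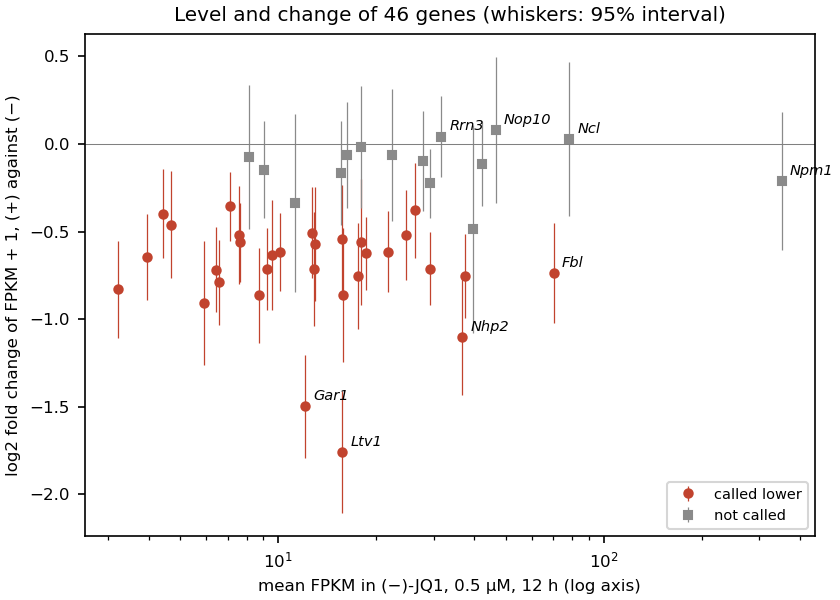
Log2 fold change of FPKM + 1 at 0.5 µM and 12 h, (+)-JQ1 over (−)-JQ1, against the mean (−)-JQ1 FPKM on a log axis for the 46 genes, with limma 95% intervals as whiskers. Red circles mark the 31 genes called lower and grey squares the others, among them Npm1, Ncl, Nop10 and Rrn3, all with high levels.

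Several of the genes carry snoRNA genes in their introns. In the GENCODE annotation Nop56 held 5 snoRNA genes, Nop58 held 4, Ncl, Gnl3 and Wdr43 held 3 each, and Dkc1 held 1. Dkc1, Gnl3 and Wdr43 were called lower in all 4 comparisons, as were 14.6% of all genes, Nop56 in 1, and Nop58 and Ncl in none. The snoRNAs themselves were not analysed here.

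No difference of the response between doses or times was called in these genes. The dose effect, the fold change at 0.5 µM less that at 0.2 µM, was called for 0 of the 46 genes in limma after 12 h, with 1 at an unadjusted p under 0.05, and 0.0435% of all genes were called. After 24 h it was again 0 in limma, with 1 unadjusted, beside 0.290% of all genes. The gene with the unadjusted difference after 12 h was Gar1, chosen here after its value was seen, at −0.56 (95% interval −0.98 to −0.14, limma adjusted p = 1). After 24 h it was Polr1b at −0.35 (95% interval −0.70 to −0.01, limma adjusted p = 0.862). Each of the 46 genes has its own interval of the dose effect. The outermost bounds among them were −0.98 and 0.81 after 12 h, and −0.76 and 1.03 after 24 h. These bounds belong to different genes, so they give no single size of difference that could be missed. The median dose effect was −0.07 after 12 h and 0.02 after 24 h, beside −0.02 and −0.0033 over all genes.

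Within (+)-JQ1 alone, 0.5 against 0.2 µM gave 0 calls in limma among the 46 genes at each time, beside 0.645% of all genes after 12 h and 2.15% after 24 h. At an unadjusted p under 0.05 there were 3 and 5. Gar1 had 3.31, 3.61 and 3.93 FPKM at 0.5 µM, against 4.24, 5.04 and 6.78 FPKM at 0.2 µM after 12 h, all lower at the higher dose. The difference was −0.44 (limma adjusted p = 0.244). Ltv1 had 3.13, 4.05 and 4.70 FPKM at 0.5 µM, against 5.13, 4.66 and 6.11 FPKM at 0.2 µM, a difference of −0.35 (limma adjusted p = 0.715) with overlap in range. Rrp12 after 24 h had 1.92, 2.03 and 1.73 FPKM at 0.5 µM, against 2.50, 3.35 and 2.50 FPKM at 0.2 µM, a difference of −0.38 (limma adjusted p = 0.109). In (−)-JQ1 cells 0 genes of the list were called between doses in limma at either time, with 0 and 1 at an unadjusted p under 0.05, and 0% and 0.00725% of all genes were called.

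**Figure D4:**
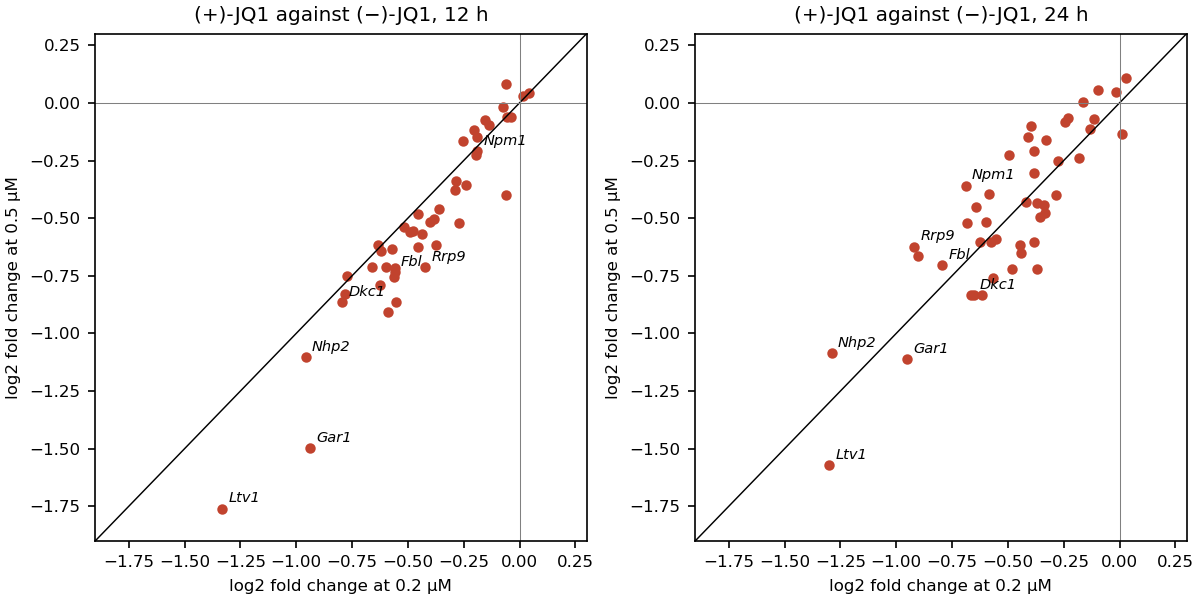
Log2 fold change of FPKM + 1, (+)-JQ1 over (−)-JQ1, at 0.5 µM (vertical) against 0.2 µM (horizontal) for the 46 genes after 12 h (left) and 24 h (right), with the line of equal change. Points lie near the line at both times, and Ltv1 and Gar1 lie farthest below it after 12 h.

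The enantiomer effect at 24 h less that at 12 h was called for 0 members in limma at 0.2 µM, with 0.0217% of all genes, and for 0 at 0.5 µM, with 0.326% of all genes. At an unadjusted p under 0.05 there was 1 gene at each dose. These were Rrp9 at 0.2 µM, at −0.50 (95% interval −0.96 to −0.04, limma adjusted p = 0.999), and Wdr12 at 0.5 µM, at 0.51 (95% interval 0.01 to 1.01, limma adjusted p = 0.724). Within (+)-JQ1, 24 against 12 h gave 0 calls in limma at 0.2 µM, with 1 unadjusted, beside 3.30% of all genes. At 0.5 µM it gave 0, with 7 unadjusted, beside 4.21% of all genes.

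In (−)-JQ1 cells, over both doses, 2 genes were higher at 24 h than at 12 h, with 7 at an unadjusted p under 0.05, beside 11.0% of all genes called higher and 4.62% lower. Rrp9 had 16.1, 14.9 and 22.7 FPKM at 0.2 µM and 12.9, 16.2 and 12.3 FPKM at 0.5 µM after 24 h, against 11.4, 10.4 and 12.6 FPKM and 12.3, 12.8 and 13.5 FPKM at those doses after 12 h. Its change over time was 0.33 (limma adjusted p = 0.0463). Nop16 changed by 0.29 (limma adjusted p = 0.0367). The count of calls was 0 to 5 with 1 library left out: it was 5 without the 1st library at 0.2 µM and 24 h, 4 without the 3rd at 0.5 µM and 24 h, and 0 or 1 without any of 8 others. It was 10 without the pair of libraries in which the RNA Mir5105 takes a large share.

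Among the other genes of the pathway a smaller share was lower, a difference that was not tested. Members and lists were chosen with earlier results of these data known, and the effect of that choice on the shares was not tested. Of 116 further ribosome biogenesis genes tested, out of 120 listed, 31 (26.7%) and 46 (39.7%) were lower at 0.2 and 0.5 µM after 12 h. After 24 h, 45 (38.8%) and 35 (30.2%) were lower, and 2, 3, 3 and 4 were higher in the 4 comparisons. Of all genes, 19.6%, 26.1%, 21.8% and 24.5% were lower and 8.23%, 12.2%, 11.0% and 13.7% higher in that order. The median log2 fold change of the 116 genes was −0.21, −0.29, −0.29 and −0.23. Of 34 other large subunit genes, 14, 19, 16 and 13 were lower and 1 higher in each. Rrs1, which helps to place the small rRNA of the large subunit, had 6.57, 8.52 and 7.34 FPKM in (+)-JQ1 cells, against 20.1, 22.3 and 19.9 FPKM in (−)-JQ1 cells at 0.5 µM and 24 h, with a fold change of −1.37 ± 0.12 (limma adjusted p = 5.96e-09). The groups did not overlap, and its fold changes in the other comparisons were −1.14, −1.60 and −1.29. Mrto4, another large subunit assembly factor, had fold changes of −0.95, −1.18, −1.13 and −1.13, and Rpf2, the partner of Rrs1, of −0.54, −0.71, −0.73 and −0.91, all called.

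Of 36 other small subunit genes, 0 were higher and 11, 17, 15 and 13 lower, beside 19.6%, 26.1%, 21.8% and 24.5% of all genes. The 3 with the largest change at 0.5 µM and 24 h were Rrp8, an rRNA methyltransferase, at −1.15, Wdr46 at −0.87, and Nat10, the acetyltransferase of small subunit rRNA, at −0.66. Among 14 genes of the exosome, the complex that trims rRNA ends, 3, 4, 4 and 3 were lower, counts near those shares of all genes. Exosome genes lower in the last comparison included C1d at −0.72, Exosc1 at −0.62 and Exosc10 at −0.50. Of 15 other nucleolar helicase genes, 3, 4, 6 and 4 were lower. These counts were near the shares of all genes except at 0.2 µM and 24 h, where 1 helicase gene was also higher. The largest called changes of these helicase genes at 0.5 µM and 24 h were those of Dhx33 at −0.54, Ddx52 at −0.41 and Ddx31 at −0.38.

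A list of 17 other genes tied to polymerase I or ribosomal DNA transcription held more than polymerase subunits, among them Kdm2a, Phf8, Top1 and Nfx1. Of these 17 genes, 0, 2, 4 and 2 were lower and 1, 2, 1 and 3 higher, with medians of 0.07, 0.02, 0.01 and 0.11. Of all genes, 19.6%, 26.1%, 21.8% and 24.5% were lower and 8.23%, 12.2%, 11.0% and 13.7% higher. Sirt7, a deacetylase known to activate polymerase I, had 12.5, 18.1 and 16.4 FPKM in (+)-JQ1 cells, against 8.75, 10.6 and 10.4 FPKM in (−)-JQ1 cells at 0.5 µM and 24 h. It was higher with (+)-JQ1 there, with a fold change of 0.60 ± 0.17 (limma adjusted p = 0.00935). Ddx11 was higher too, at 0.52 (limma adjusted p = 0.00429), and Cd3eap, a polymerase I subunit, was lower at −0.54 (limma adjusted p = 0.0104).

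Myc itself, the factor these genes are known to follow, was lower at every dose and time. Myc levels were 7.13, 7.06 and 7.52 FPKM in (+)-JQ1 cells, against 32.9, 37.4 and 35.9 FPKM in (−)-JQ1 cells at 0.5 µM and 24 h, and the groups did not overlap. Its fold changes were −1.13 at 0.2 µM and −1.52 at 0.5 µM after 12 h, and −1.41 at 0.2 µM and −2.14 at 0.5 µM after 24 h, with a limma adjusted p of 8.25e-11 for the last. Mycn was low in all libraries, with 0.539, 0.619 and 0.826 FPKM in (+)-JQ1 cells, against 2.14, 1.28 and 1.87 FPKM in (−)-JQ1 cells, and its fold changes were −0.86, −1.10, −0.67 and −0.73, all called. Max, the partner of Myc, had fold changes of −0.37, −0.45, −0.41 and −0.45, of which the first was not called (adjusted p = 0.0546). Hexim1, an inhibitor of transcription elongation whose rise is a usual readout of BET inhibition, had 60.8, 67.2 and 65.5 FPKM in (+)-JQ1 cells, against 18.9, 20.8 and 19.2 FPKM in (−)-JQ1 cells at 0.5 µM and 24 h (fold change 1.67 ± 0.09, limma adjusted p = 3.18e-12).

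Of 15 proliferation genes, 2 were lower at each dose after 12 h and 1 was higher. Of all genes, 19.6% and 26.1% were lower at 0.2 and 0.5 µM after 12 h, and 8.23% and 12.2% higher. After 24 h, 12 of the 15 were lower at each dose and 1 was higher at 0.5 µM. Of the 46 ribosome biogenesis genes, 26 were lower then at 0.2 µM and 26 at 0.5 µM, beside 21.8% and 24.5% of all genes. Top2a, a DNA topoisomerase of dividing cells, had 3.59, 3.70 and 11.5 FPKM in (+)-JQ1 cells, against 2.67, 3.63 and 5.24 FPKM in (−)-JQ1 cells at 0.5 µM and 12 h, with overlapping groups. After 24 h at that dose it had 1.85, 1.81 and 0.532 FPKM in (+)-JQ1 cells, against 9.40, 7.39 and 4.69 FPKM in (−)-JQ1 cells and no overlap, with a fold change of −1.78 ± 0.40 (limma adjusted p = 0.00145). Mcm3 and Mcm5, of the replicative helicase, had fold changes of −0.67 and −0.52 at 0.5 µM and 12 h, where Mcm5 was not called, and of −1.69 and −1.62 after 24 h. The timing of the gene sets was not compared by a test.

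**Figure D5:**
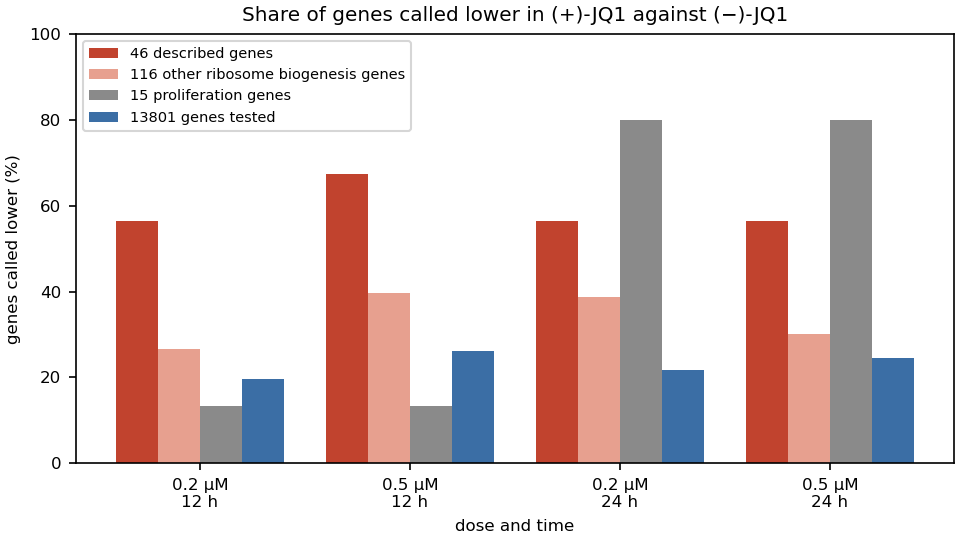
Share of genes called lower with (+)-JQ1 in each comparison, as percent of the genes tested, for the 46 described genes, 116 other ribosome biogenesis genes, 15 proliferation genes and all 13801 genes. The described genes stand above the share of all genes in each comparison, and the proliferation genes do so after 24 h and not after 12 h. The gene lists were chosen with earlier results of these data known.

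Relative depth, read from the steps between low values, ranged from 0.949 to 1.06 of the median library, FPKM sums from 432235 to 871177, and 16987 to 18243 genes were above 0. The absolute depth is unknown. In 2 libraries, the 2nd (+)-JQ1 and the 1st (−)-JQ1 at 0.2 µM and 24 h, Mir5105 took 46.9% and 42.7% of the FPKM sum, against at most 6.69% in the others. Without them 22 members were lower at 0.2 µM and 24 h, rather than 26, beside 19.5% of all genes. The calls of Polr1b, Tcof1, Heatr1, Wdr12, Noc2l and Mybbp1a were lost there and those of Ncl and Ddx10 gained. At 0.5 µM and 24 h those of Npm1 and Utp15 were gained, which made 28. Summed markers of neural progenitors (7 genes) were 3989 to 6853 FPKM in (+)-JQ1 libraries and 2819 to 4988 FPKM in (−)-JQ1 libraries. Those of neurons (4 genes) were 119 to 260.2 FPKM with (+)-JQ1 and 98.2 to 189 FPKM with (−)-JQ1. Rbfox3, a neuron marker, was under 1 FPKM in all 3 libraries of each 0.5 µM (+)-JQ1 group, and of no other group. The 5 astrocyte markers summed to 215 to 489.6 FPKM with (+)-JQ1 and 516 to 956 FPKM with (−)-JQ1, and the 8 of the oligodendrocyte lineage to 415 to 1192 FPKM with (+)-JQ1 and 1479.7 to 2103 FPKM with (−)-JQ1, neither overlapping. Cspg4 of that list was under 1 FPKM in all (+)-JQ1 groups. Markers of microglia summed to at most 0.583 FPKM with (+)-JQ1 and 0.758 FPKM with (−)-JQ1. Markers of endothelium summed to 0.530 to 2.61 FPKM with (+)-JQ1 and 0.715 to 6.63 FPKM with (−)-JQ1. Those of fibroblasts and pericytes summed to 2.62 to 5.25 FPKM with (+)-JQ1 and 5.71 to 13.6 FPKM with (−)-JQ1. Astrocyte and oligodendrocyte lineage markers were thus lower in the same libraries as the ribosome biogenesis genes. Their part in the result was not tested.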

How the data were processed

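RNA of 24 libraries was sequenced as single reads of poly(A)-selected RNA, and the authors deposited FPKM values per gene, 1 file a library. Per the submitters' processing notes, FastQC and TopHat2 were used with the mm9 build. The FPKM program, annotation, versions and strand setting are not given in the sources used here. From 26694 rows per file, 58 rows of 29 repeated symbols were left out. Genes that reached 1 FPKM in 3 or more libraries entered the test, in R 4.3.3 with limma 3.58.1 (trend and robust) on log2(FPKM + 1), with 1 mean for each of 8 groups and 16 residual degrees of freedom. P-values were Benjamini-Hochberg adjusted over all genes tested. The fit was tested on simulated data. FPKM values keep no absolute depth, so the number of libraries limits the precision. Members and gene lists were chosen with earlier results of these data known. Values in every library at 0.5 µM and 24 h were printed for 15 named members and the 5 members lowest and highest in fold change there. From other lists the 3 called genes of largest change there were named, beside Myc, Mycn, Max and Hexim1. Other printed values were chosen after they were seen. Alternatives were another scaling, another pseudocount, no filter, a preparation term and left-out libraries.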

Additional observations from a re-analysis of the deposited data

How the results depend on the processing

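Under the alternatives run, no fold change of a called gene reversed. The counts of lower genes, 26, 31, 26 and 26 at 0.2 and 0.5 µM after 12 h and 0.2 and 0.5 µM after 24 h, ranged over 18 to 27, 26 to 32, 21 to 30 and 21 to 26 with 1 library left out. With only the libraries of the groups compared, the count at 0.2 µM and 24 h was 11, and the cause was not tested. The replicate block, a term for the preparation number, gave 26, 31, 26 and 27, and it lost the call of Wdr43 and gained that of Utp15 at 0.2 µM and 12 h, and gained that of Utp15 at 0.5 µM and 24 h. Same-numbered libraries correlated between −0.345 and 0.358 in their deviations, and the main fit did not take the numbers as pairs. The 2 lowest values, −0.345 and −0.196, were at 0.2 µM and 24 h, in the pairs that hold the 2 libraries high in Mir5105. At 0.5 µM and 24 h the correlations were 0.0458, 0.166 and 0.292. The block gave each number 1 term over both times. A fit paired within each dose and time was not run. For 24 against 12 h in (+)-JQ1 at 0.5 µM, the count of 0 became 1 with median-of-ratios scaling, a pseudocount of 0.1, the replicate block or without the 2 libraries high in Mir5105, and was 0 to 1 with 1 library left out. For 24 against 12 h in (−)-JQ1, the count of 2 became 1 with that scaling, that pseudocount or no filter, 10 without the 2 libraries and 0 with only the groups compared, and was 0 to 5 with 1 library left out. All counts for the dose contrasts, the differences of effect and 24 against 12 h in (+)-JQ1 at 0.2 µM were 0 to 0 with 1 library left out. Depth in reads is unknown, and 3 libraries a group limit what can be called.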
